A study of Homo sapiens with 12 samples.

Results

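The matrix metalloproteases (MMPs), the ADAM and ADAMTS proteases and the tissue inhibitors of metalloproteases (TIMPs) were examined by RNA level in HK2, an immortalised cell line made from the proximal tubule of a human kidney. The members are the protein-coding genes of the count table whose GENCODE symbol is MMP, ADAM, ADAMTS or TIMP followed by a number, and 65 of the 58288 gene IDs in the table met that rule: 22 MMP, 20 ADAM, 19 ADAMTS and 4 TIMP genes. Of these, 27 had enough counts to be tested, 23 had some counts but too few, and 15 had none in any library. The rule leaves out MMP23B, whose symbol ends in a letter, and the antisense genes and pseudogenes named after members.

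All cells expressed an shRNA (a hairpin that directs the breakdown of a matching mRNA), either against FLCN, the gene lost in Birt-Hogg-Dubé syndrome, or against no target (nontarget, labelled shControl, genotype WT). Cells were harvested at fewer than 30 passages (short-term) or at more than 120 passages per the labels (long-term), whereas the study's methods give a lower limit, counted after clonal selection, for the long-term cells. That gave 4 groups of 3 libraries, which the labels call biological replicates: nontarget and FLCN knockdown, each short-term and long-term. The stable lines were clones, and since the sources do not tie a library to a clone, effects of the hairpin and of the clone cannot be told apart.

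MMPs are zinc proteases that cut collagens and other proteins of the extracellular matrix, and most are secreted as inactive proenzymes, while the membrane-type MMPs stay anchored at the cell surface. ADAMs are membrane proteases that release the outer part of growth factors, receptors and adhesion molecules from cells. ADAMTS enzymes are secreted and cut proteoglycans, procollagens and fibrillin-associated proteins, and TIMPs bind the active site of these enzymes and block it. In the kidney tubule, ADAM17 is known for releasing ligands of the epidermal growth factor receptor and MMP7 for its rise in injured epithelium.

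Totals were 5825779 to 8991051 counts per library, of which the members held 0.130% to 0.194%, and mitochondrial genes held 2.72% to 5.603%. Mitochondrial genes held 2.72% to 3.35% in long-term nontarget and 3.79% to 5.603% in long-term knockdown libraries, and ribosomal protein genes 4.72% to 5.03% and 6.19% to 6.66%, with no overlap, and their part in the long-term differences was not tested. Over time, the mitochondrial share did not overlap in nontarget cells (4.29% to 4.47% short-term). The ribosomal protein share did not overlap in knockdown cells (4.96% to 5.91% short-term). Their part in the differences over time was not tested. Levels are given as CPM, the counts of a gene relative to the TMM-scaled size of its library, unless a sentence says otherwise. Replicates differed by more than counting error, and the replicate 3 libraries stood furthest from their groups: chi-square over its degrees of freedom came to 6.32 to 11.9 for the 6 pairs with a replicate 3 outside the short-term nontarget group, against 2.07 to 4.93 for the 4 pairs without one. FLCN was at 12.7, 16.7 and 16.5 CPM in the short-term nontarget libraries, 5.95, 6.58 and 5.66 after short-term knockdown, 9.92, 11.9 and 12.2 in the long-term nontarget libraries and 6.70, 6.31 and 7.97 after long-term knockdown, so every knockdown library lay below the nontarget libraries of its time. The sum of 14 proximal tubule markers was 281 to 409 CPM and was led by PAX8, while LRP2 and HNF4A, which define that cell type, were at 0. The 6 epithelial markers, led by KRT8, summed to 2161 to 3595 CPM. Both sums were without overlap in the short-term groups (proximal tubule 281 to 317 CPM in nontarget and 378 to 407 CPM in knockdown libraries, epithelial 2290.0 to 2533 CPM and 2736 to 3595 CPM), and their part in the short-term differences was not tested. In long-term nontarget libraries the sums were 349 to 409 and 2806 to 3142 CPM, above all short-term nontarget libraries, and their part in that comparison was not tested. The 6 leukocyte markers summed to 0.155 to 1.32 CPM with PTPRC and CD3E at 0, and 4 endothelial markers to at most 0.943 CPM with KDR at 0. The 8 fibroblast markers, led by COL1A1, summed to 49.8 to 59.3 CPM in the short-term libraries and to 26.5 to 36.8 CPM in the long-term libraries. The markers did not move alike: mean LUM was 23.5 and 0.960 CPM in short- and long-term nontarget and 23.2 and 12.1 CPM in short- and long-term knockdown libraries, whereas mean PDGFRB was 3.99 and 7.41 CPM in nontarget and 2.19 and 0.658 CPM in knockdown libraries. The part of these markers in the members' differences was not tested.

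Per length of exon, the inhibitor TIMP1 had the highest level of all members. Its mean over the 12 libraries was 148 RPKM (CPM for each kilobase of exon). TIMP2 followed at 35.4 RPKM, and the membrane-type proteases MMP24 and MMP14 had 32.5 and 29.9 RPKM. Below them came ADAMTS12 at 18.5, MMP1 (interstitial collagenase) at 15.3, ADAM15 at 15.3, ADAMTS1 at 14.8 and ADAM10 at 14.3 RPKM. In the short-term nontarget group, TIMP2 (37.4 ± 1.51 RPKM, SD, n = 3) and MMP14 (37.1 ± 2.87 RPKM) did not differ beyond their spread, whereas MMP24 (46.3 ± 1.72 RPKM) lay above both. The lowest levels among tested members were those of ADAMTS6 at 0.437 and MMP11 at 0.256 RPKM.

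**Figure D1:**
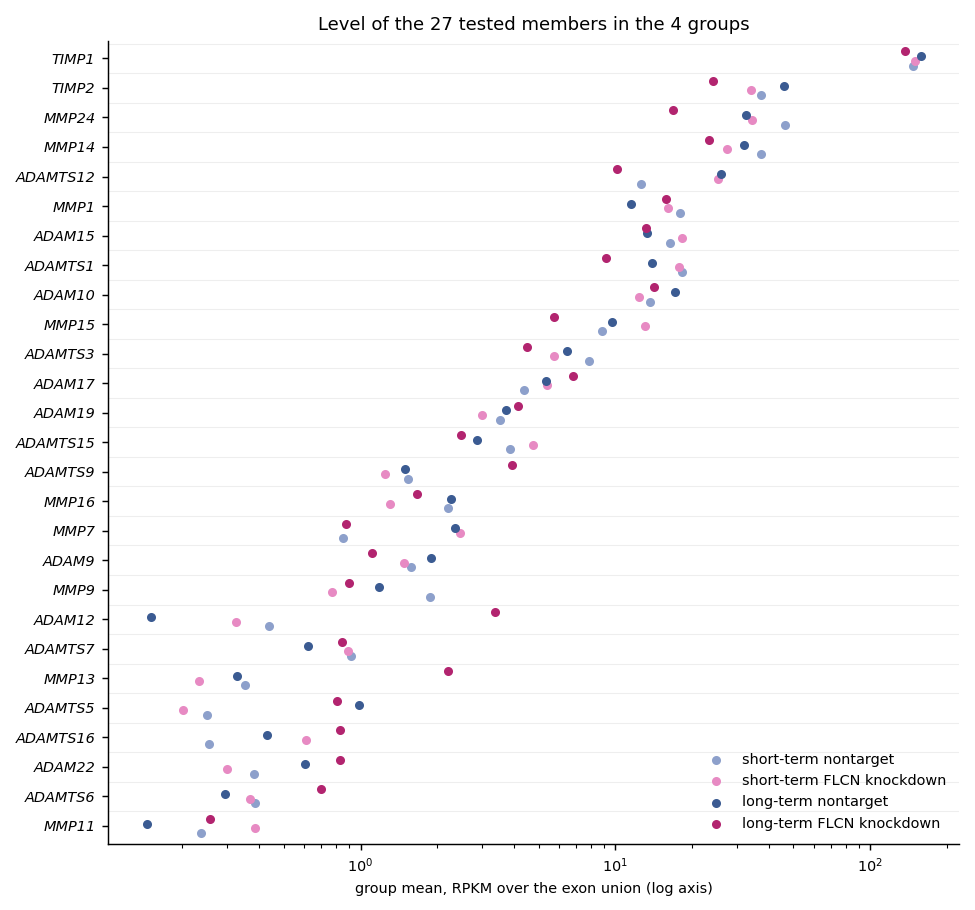
Mean level of the 27 tested members in each group, in RPKM over the exon union on a log axis, ordered by the mean over the 12 libraries. TIMP1 lies furthest right in all groups, and ADAM12 spans the widest range, from 0.151 RPKM in long-term nontarget to 3.38 RPKM in long-term knockdown cells.

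The 15 members without a count were ADAM2, ADAM7, ADAM20, ADAM28, ADAM29, ADAM30, ADAMTS4, ADAMTS20, MMP2, MMP8, MMP12, MMP21, MMP26, MMP27 and TIMP3. For each of these, 0 of the 83920506 counts over the 12 libraries allows a level of up to 0.036 CPM, from counting error alone. MMP2 (gelatinase A), which MMP14 activates with the help of TIMP2, and TIMP3, the inhibitor of ADAM17 and of the aggrecan-cutting ADAMTS enzymes, were thus not detectable at this depth. The 23 members with too few counts to be tested had totals of 1 to 64 over the 12 libraries and at most 10 in any library. They were ADAM8, ADAM11, ADAM18, ADAM21, ADAM23, ADAM32, ADAM33, ADAMTS2, ADAMTS8, ADAMTS10, ADAMTS13, ADAMTS14, ADAMTS17, ADAMTS18, ADAMTS19, MMP3, MMP10, MMP17, MMP19, MMP20, MMP25, MMP28 and TIMP4.

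Short-term FLCN knockdown, which asks what FLCN loss does before long culture, changed 7 of the 27 tested members (edgeR quasi-likelihood test, adjusted p below 0.05 over 13959 genes). MMP7, ADAMTS16 and ADAMTS12 rose by 2.02-fold to 2.91-fold, and MMP9, MMP16, ADAMTS3 and MMP14 fell by 1.36-fold to 2.32-fold. The 3 members that rose compare with 5.62% of all tested genes called higher, and the 4 that fell with 4.71% called lower. The median log2 fold change was −0.14 over the members and −6.9e-05 over all tested genes. Leaving out 1 library gave 2 to 7 members: 2 without replicate 1 of the short-term nontarget group, and 4 without replicate 2 of that group or without replicate 1 or 2 of the short-term knockdown group. Leaving out replicate 3 of all 4 groups, an alternative chosen after seeing the data, gave 10 members.

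Long-term FLCN knockdown changed 16 of the 27, 6 higher and 10 lower. ADAM12 rose by 22.2-fold, MMP13 by 6.74-fold and ADAMTS9 by 2.63-fold, and ADAMTS6, ADAMTS16 and ADAM17 rose by less. MMP7 fell by 2.81-fold, ADAMTS12 by 2.57-fold, MMP24 by 1.93-fold and TIMP2 by 1.91-fold, and MMP15, ADAM9, ADAMTS1, ADAMTS3, MMP14 and ADAM10 fell by less. Among all tested genes, 13.7% were called higher and 15.8% lower. The median log2 fold change was −0.22 over the members and 0.00095 over all genes. Leaving out 1 library gave 12 to 16 members, and leaving out replicate 3 of all 4 groups gave 16, 7 higher and 9 lower.

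The short-term and the long-term comparison share no library, so their values can be set side by side. ADAMTS16 was called higher in both, ADAMTS3 and MMP14 were called lower in both, and ADAMTS12 and MMP7 were called in opposite directions. MMP9 and MMP16 were called after short-term knockdown alone (MMP16 after both with the replicate number as a block), 11 members after long-term knockdown alone and 9 in neither. Over all 13959 genes tested, 2.38% were higher after both knockdowns, 2.64% lower after both, 1.27% called in opposite directions, 4.04% called after short-term knockdown alone, 23.2% after long-term knockdown alone and 66.5% in neither. Whether the effect itself differed with time is tested by the interaction, given below after the members.

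**Figure D2:**
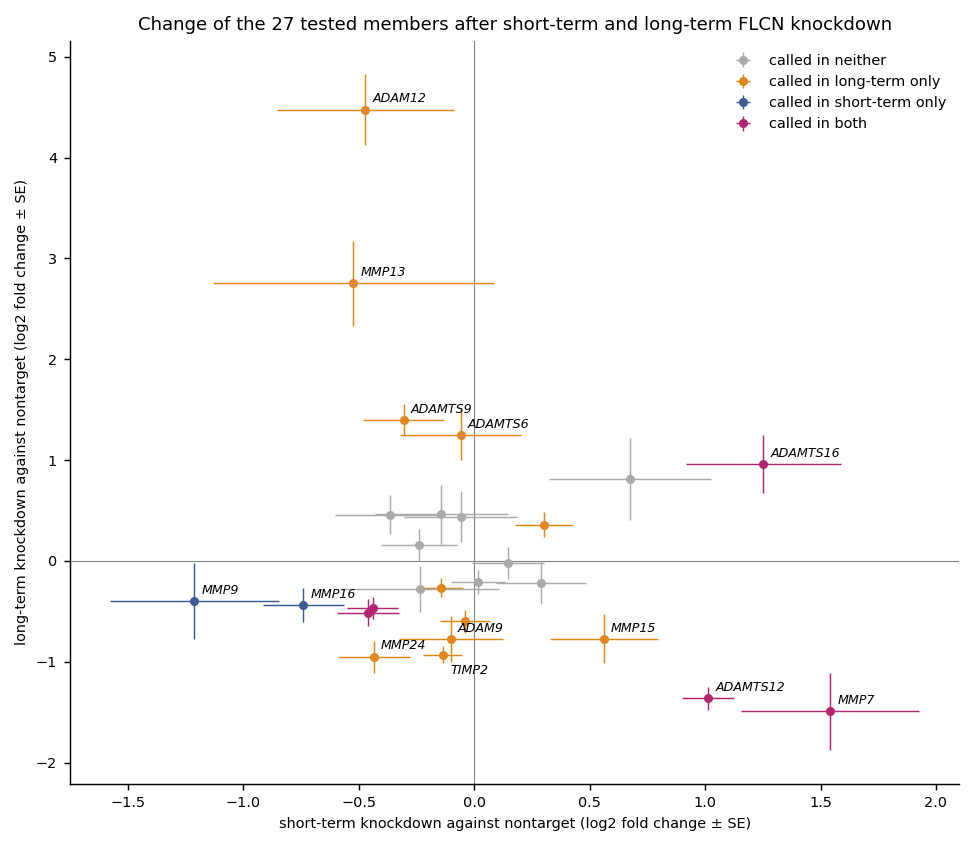
Log2 fold change (± SE) of each of the 27 tested members after short-term knockdown (horizontal axis) and after long-term knockdown (vertical axis), each against nontarget cells of the same time. ADAM12 and MMP13 lie far up and close to or left of 0 on the short-term axis, while ADAMTS12 and MMP7 lie to the lower right, higher after short-term and lower after long-term knockdown.

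The inhibitors came first by level per length of exon, whereas by CPM the highest mean was that of ADAM10 (232, against 228 for TIMP1). TIMP1 (chromosome X, 47582313 to 47586789, plus strand; GRCh38) was at 237, 242 and 204 CPM in short-term nontarget, 229, 236 and 226 in short-term knockdown, 211, 245 and 274 in long-term nontarget and 190.4, 196 and 245 in long-term knockdown libraries, and the groups overlapped. It was called in none of the 5 comparisons: the 95% interval of its log2 fold change was −0.21 to 0.25 after short-term and −0.44 to 0.017 after long-term knockdown (edgeR adjusted p = 0.956 and 0.192). Without replicate 3 of the long-term knockdown group it was called after long-term knockdown, and without replicate 3 of all 4 groups it was called there and between long-term and short-term knockdown cells. TIMP2 (chromosome 17, 78852977 to 78925387, minus strand), which binds MMP14 as well as inhibiting MMPs, was at 220.5, 205 and 207 CPM in short-term nontarget and 191, 196 and 188 in short-term knockdown libraries, and at 242, 265 and 269 in long-term nontarget and 138, 131 and 138 in long-term knockdown libraries. The 3 long-term knockdown libraries were the lowest of the 12 and the 3 long-term nontarget libraries the highest. TIMP2 fell by 1.91-fold after long-term knockdown (log2 change −0.93 with SE 0.0860, edgeR adjusted p = 3.20e-07), and its value after short-term knockdown was −0.14 (edgeR adjusted p = 0.374). The antisense gene AC022966.1 shares 6.52% of the exon bases of TIMP2 and also fell after long-term knockdown (log2 change −0.95 with SE 0.196, edgeR adjusted p = 0.00125). The library kit does not mark strand, so counts in the shared stretch cannot be told apart. TIMP3 had no count and TIMP4 had 2 counts over the 12 libraries.

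Among the secreted MMPs, MMP7 and MMP13, which both lie in the MMP cluster of chromosome 11, moved in opposite directions over the long-term comparison. MMP7 (matrilysin, chromosome 11, 102520508 to 102530753, minus strand) was at 2.05, 1.52 and 2.36 CPM in short-term nontarget and 6.33, 6.43 and 4.42 in short-term knockdown libraries, a rise of 2.91-fold (log2 change 1.54 with SE 0.385, edgeR adjusted p = 0.0147). Among long-term libraries MMP7 stood at 4.56, 3.41 and 8.41 CPM without and 0.924, 2.79 and 2.37 with knockdown, a fall of 2.81-fold (log2 change −1.49 with SE 0.383, edgeR adjusted p = 0.00656). Within each time the groups did not overlap, and the order of knockdown and nontarget was reversed between the times. The values rest on 40, 119, 121 and 41 counts per group in that order. The short-term call had an adjusted p of 0.0562 to 0.0749 without replicate 1 or 2 of the short-term nontarget group or replicate 1 of the short-term FLCN knockdown group, and the long-term call an adjusted p of 0.0548 without replicate 3 of the long-term nontarget group.

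MMP13 (collagenase 3, chromosome 11, 102942995 to 102955734, minus strand), which cuts fibrillar collagen, was at 0.683, 1.22 and 1.10 CPM in short-term nontarget, 0.886, 0.731 and 0.354 in short-term knockdown and 1.07, 0.929 and 0.776 in long-term nontarget libraries. After long-term knockdown it was at 6.24, 9.69 and 2.88 CPM, so each of those libraries lay above all 9 others, with a wide spread among the 3. The rise over long-term nontarget cells was 6.74-fold (log2 change 2.75 with SE 0.421, edgeR adjusted p = 8.01e-05), on 20 counts in the nontarget and 137 in the knockdown group. Leaving out any 1 library gave log2 fold changes of 2.32 to 3.07, all past the threshold. MMP13 was not called after short-term knockdown, where its value was −0.52 with a 95% interval of −1.72 to 0.67.

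MMP1, whose gene (chromosome 11, 102789920 to 102798160, minus strand) lies between those of MMP7 and MMP13 in the same cluster, was called in none of the 5 comparisons. It was at 43.1, 39.3 and 23.4 CPM in short-term nontarget, 41.1, 34.8 and 19.3 in short-term knockdown, 23.6, 20.6 and 23.8 in long-term nontarget and 37.6, 37.4 and 17.98 in long-term knockdown libraries. Replicate 3 was the lowest library in 3 of the 4 groups, and without replicate 3 of every group MMP1 was called in 3 comparisons (long-term knockdown, time in nontarget cells, and the interaction). With all replicates of the nontarget groups and only those groups fitted, MMP1 was also called lower over time (−0.64, edgeR adjusted p = 0.0322). MMP9 (gelatinase B, chromosome 20, 46008908 to 46016561, plus strand) was at 4.51, 5.32 and 3.30 CPM in short-term nontarget and 3.16, 1.02 and 1.24 in short-term knockdown libraries, with no overlap. It fell by 2.32-fold (log2 change −1.21 with SE 0.365, edgeR adjusted p = 0.0418), on 89 and 39 counts. That call was close to the threshold: it had an adjusted p of 0.117 to 0.162 without replicate 1 or 2 of the short-term nontarget group or replicate 2 or 3 of the short-term FLCN knockdown group, was −1.21 with all libraries and −1.95 without replicate 1 of the short-term knockdown group, and missed the threshold (0.0559) when only those groups were fitted. The call was also lost without replicate 2 of the long-term nontarget or replicate 1 of the long-term knockdown group, which enter through the shared estimate of spread. SLC12A5-AS1, on the opposite strand, shares 18.4% of the exon bases of MMP9 and was not called (−0.38, edgeR adjusted p = 0.631). Among long-term libraries MMP9 stood at 2.28, 3.41 and 2.59 CPM without and 1.97, 1.61 and 2.71 with knockdown, and those groups overlapped. MMP11 (stromelysin 3), with 109 counts in all, was called in none of the comparisons.

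The letters upstream of MMP7 are shown because it moved together with ADAMTS12 and against MMP13 of the same cluster, those of ADAM12 because its change was the largest, and those of ADAMTS6 because it is a riser that holds the CACGTG motif. FLCN is known to control TFE3 and TFEB, factors that bind that motif (an E-box), and MMP promoters are known targets of AP-1, which binds TGANTCA (N is any base). Sequences are the bases before the RefSeq start site on GRCh38.p14, written 5′ to 3′ on the gene's strand, with matches in capitals. The searched motifs were the AP-1 site TGANTCA, the E-box as spelled above and the TATA box, whose letters are TATAAA. All 3 genes lie on the minus strand: MMP7 at chr11:102530754-102530997 (244 bases, the 6 inside the GENCODE gene left out), ADAM12 at chr10:126388478-126388727 and ADAMTS6 at chr5:65481921-65482170 (250 bases each).
MMP7: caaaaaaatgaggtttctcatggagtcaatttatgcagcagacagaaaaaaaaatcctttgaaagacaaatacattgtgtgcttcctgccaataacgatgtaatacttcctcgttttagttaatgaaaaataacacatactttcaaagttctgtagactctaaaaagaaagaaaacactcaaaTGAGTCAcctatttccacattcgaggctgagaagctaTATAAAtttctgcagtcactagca
ADAM12: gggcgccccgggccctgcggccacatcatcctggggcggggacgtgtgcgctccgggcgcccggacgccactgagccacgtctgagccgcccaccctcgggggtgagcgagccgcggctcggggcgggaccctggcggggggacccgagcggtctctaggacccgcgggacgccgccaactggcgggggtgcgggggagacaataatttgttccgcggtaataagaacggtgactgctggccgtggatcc
ADAMTS6: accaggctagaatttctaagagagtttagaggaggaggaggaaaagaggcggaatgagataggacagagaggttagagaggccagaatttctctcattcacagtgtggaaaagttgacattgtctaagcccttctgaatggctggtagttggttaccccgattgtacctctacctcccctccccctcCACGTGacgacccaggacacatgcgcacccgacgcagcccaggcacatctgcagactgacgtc
RefSeq promoter entries were matched for 38 of the 65 members, 16 of them tested. The other 11 tested members, among them MMP13, MMP1, MMP9, ADAMTS9 and TIMP2, had no entry and were not searched. Over the 250 upstream bases and both strands, TGANTCA was found in 2 of these 16, MMP7 (67 bases before the start) and ADAMTS12 (84 bases before it), against 6.57% of 35116 promoters. CACGTG was found in 2, ADAMTS6 (63 bases) and ADAM10 (143 bases), against 6.34%, and TATAAA in MMP7 alone (30 bases), against 10.7%. The 2 with CACGTG went opposite ways after long-term knockdown, ADAMTS6 higher (1.24) and ADAM10 lower (−0.27) on the log2 scale. ADAM12 had none of the 3 in its window. The motifs do not overlap in these windows, and a match is a description of the letters only.

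Of the membrane-type MMPs, which act at the cell surface, MMP14 and MMP16 fell after short-term knockdown and MMP14, MMP15 and MMP24 after long-term knockdown. MMP14 (chromosome 14, 22836557 to 22849027, plus strand), an activator of other MMPs, was at 180.4, 157 and 159.5 CPM in short-term nontarget and 111, 128 and 128 in short-term knockdown libraries, and at 122, 149 and 158 and 97.0, 105 and 109 in the long-term groups. At both times every knockdown library lay below every nontarget library. It fell by 1.36-fold after short-term (log2 change −0.44 with SE 0.110, edgeR adjusted p = 0.0148) and by 1.38-fold after long-term knockdown (log2 change −0.47 with SE 0.111, edgeR adjusted p = 0.00370), and the short-term call had an adjusted p of 0.0830 to 0.0923 without replicate 1 of the short-term nontarget group or replicate 1 of the short-term FLCN knockdown group. MMP16 (chromosome 8, 88032009 to 88328025, minus strand) was at 24.5, 25.1 and 30.3 CPM without and 19.1, 15.5 and 12.7 with short-term knockdown, and at 29.9, 25.7 and 26.4 without and 20.9, 23.8 and 15.6 with long-term knockdown. It fell by 1.67-fold after short-term knockdown (log2 change −0.74 with SE 0.174, edgeR adjusted p = 0.0100), with an adjusted p of 0.0575 without replicate 3 of the short-term nontarget group. After long-term knockdown the groups did not overlap either, but the change missed the threshold (log2 change −0.44 with SE 0.169, edgeR adjusted p = 0.0604). With the replicate number as a block, MMP16 was called lower there too (log2 change −0.44, edgeR adjusted p = 0.0280), as it was without the filter on low counts (0.0434), without replicate 2 of the long-term knockdown group (0.0303) and without replicate 3 of the short-term knockdown group (0.0402). Same-numbered libraries correlated in this comparison, but the labels state no pairing.

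MMP24 (chromosome 20, 35226654 to 35277000, plus strand), best known from neurons, was at 210.4, 207 and 196 CPM in short-term nontarget and 128, 134 and 193 in short-term knockdown libraries, with replicate 3 of the knockdown group close to the nontarget libraries. That change missed the threshold (log2 change −0.44 with SE 0.155, edgeR adjusted p = 0.0914) and was called without replicate 3 of the short-term knockdown group (0.00518), without replicate 3 of the long-term knockdown group (0.0350), without replicate 3 of every group (7.38e-06) and without the filter on low counts (0.00514). In the long-term cells MMP24 was at 133, 137 and 159.8 CPM without and 69.2, 61.3 and 92.6 with knockdown, and it fell by 1.93-fold (log2 change −0.95 with SE 0.160, edgeR adjusted p = 2.36e-04). MMP24OS, on the opposite strand, shares 18.1% of the exon bases of MMP24 and fell too (log2 change −0.53 with SE 0.191, edgeR adjusted p = 0.0445), and its part in the MMP24 value was not tested. MMP15 (chromosome 16, 58025566 to 58046901, plus strand) was at 34.9, 37.4 and 45.1 CPM in short-term nontarget and 55.0, 48.5 and 69.7 in short-term knockdown libraries, which did not overlap, yet the change missed the threshold (log2 change 0.56 with SE 0.234, edgeR adjusted p = 0.159). It was called higher without the filter on low counts (0.00294), with only the groups compared (0.0207) and without replicate 3 of every group (0.00520). Among long-term libraries MMP15 stood at 31.1, 37.3 and 59.8 CPM without and 19.9, 21.6 and 34.4 with knockdown. These groups overlapped, and in all 4 groups replicate 3 was the highest library. The long-term fall of 1.71-fold (log2 change −0.77 with SE 0.243, edgeR adjusted p = 0.0248) had an adjusted p of 0.0876 to 0.140 without replicate 3 of the long-term nontarget group or replicate 1 or 2 of the long-term FLCN knockdown group, and it remained a call without replicate 3 of all 4 groups.

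ADAM12 (chromosome 10, 126012381 to 126388455, minus strand), a protease of regenerating muscle and placenta that is known to release HB-EGF, had the largest change of all tested members after long-term knockdown. It was at 4.92, 3.04 and 5.03 CPM in short-term nontarget, 2.78, 1.90 and 4.96 in short-term knockdown and 2.68, 1.39 and 0.388 in long-term nontarget libraries. The long-term knockdown libraries were at 30.6, 34.8 and 34.6 CPM, each far above the highest of the other 9. The rise over long-term nontarget cells was 22.2-fold (log2 change 4.47 with SE 0.348, edgeR adjusted p = 7.89e-08), on 32 counts without and 706 with knockdown. The size of the change depended on 1 library of the low and widely spread nontarget group: without replicate 1 of the long-term nontarget group the log2 fold change was 5.26. After short-term knockdown ADAM12 was not called (−0.47, 95% interval −1.22 to 0.28).

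The best known sheddases, ADAM10 and ADAM17, changed by small amounts in opposite directions. ADAM10 (chromosome 15, 58588807 to 58749978, minus strand), which cuts Notch and cadherins, was at 223, 216 and 225 CPM in short-term nontarget, 204, 201 and 196 in short-term knockdown, 304, 256 and 269 in long-term nontarget and 242, 236 and 211 in long-term knockdown libraries. Knockdown libraries lay below nontarget libraries at both times, and the change was called after long-term knockdown (log2 change −0.27 with SE 0.0916, edgeR adjusted p = 0.0364) but not after short-term knockdown (log2 change −0.14 with SE 0.0921, edgeR adjusted p = 0.394). The long-term call had an adjusted p of 0.0529 to 0.141 without replicate 1 of the long-term nontarget group or replicate 2 or 3 of the long-term FLCN knockdown group, 0.0977 with only the groups compared, 0.107 without the filter on low counts and 0.0510 without replicate 3 of every group. ADAM17 (on chromosome 2), which releases TNF and several ligands of the epidermal growth factor receptor, was at 43.3, 49.5 and 48.5 CPM in short-term nontarget, 61.5, 63.5 and 49.0 in short-term knockdown, 57.9, 61.6 and 52.9 in long-term nontarget and 76.8, 80.7 and 63.3 in long-term knockdown libraries. After short-term knockdown its log2 change was 0.30 (edgeR adjusted p = 0.153), and 0.43 with adjusted p = 0.00760 without replicate 3 of every group. It rose by 1.28-fold after long-term knockdown (log2 change 0.36 with SE 0.124, edgeR adjusted p = 0.0361), with no overlap, and the call had an adjusted p of 0.0675 to 0.160 without replicate 1 or 3 of the long-term nontarget group or replicate 1 or 2 of the long-term FLCN knockdown group and 0.0594 with only the groups compared. IAH1, on the opposite strand, shares 12.3% of the exon bases of ADAM17 and rose more (1.20 and 1.52 at the short and long time, edgeR adjusted p = 3.43e-05 and 3.27e-07). The 40 tested genes closest to ADAM17 had a median of 0.31 on the log2 scale after long-term knockdown. How much of the ADAM17 value comes from the shared stretch was not tested.

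Of the other ADAMs, ADAM9 (chromosome 8, 38996869 to 39105144, plus strand), a widely expressed sheddase, was at 14.2, 10.7 and 14.2 CPM in long-term nontarget and 6.01, 10.1 and 6.95 in long-term knockdown libraries, which came close but did not overlap. It fell by 1.71-fold (log2 change −0.77 with SE 0.228, edgeR adjusted p = 0.0156), with an adjusted p of 0.0529 to 0.0927 without replicate 1 of the long-term nontarget group or replicate 1 of the long-term FLCN knockdown group and 0.0638 without replicate 3 of all groups. In short-term cells ADAM9 was at 11.2, 9.42 and 12.2 CPM without and 7.72, 13.3 and 9.73 with knockdown, and was not called (edgeR adjusted p = 0.851). ADAM15, ADAM19 and ADAM22 were called after neither knockdown. Their means ± SD in long-term nontarget and long-term knockdown cells were 87.6 ± 13.7 and 86.5 ± 22.4 CPM for ADAM15, 28.8 ± 4.05 and 32.0 ± 1.02 CPM for ADAM19, and 7.41 ± 1.18 and 10.2 ± 0.625 CPM for ADAM22 (n = 3).

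Among the ADAMTS enzymes, ADAMTS12 (chromosome 5, 33523535 to 33892192, minus strand), which is known to cut COMP of cartilage, showed the clearest switch of direction. It was at 112, 121 and 136 CPM in short-term nontarget and 259, 274 and 211 in short-term knockdown libraries, and at 268, 264 and 232 in long-term nontarget and 105, 98.6 and 93.3 in long-term knockdown libraries. The 12 values fall into 2 ranges, 93.3 to 136 CPM for the long-term knockdown and short-term nontarget groups and 211 to 274 CPM for the other 2 groups. ADAMTS12 rose by 2.02-fold after short-term knockdown (log2 change 1.01 with SE 0.113, edgeR adjusted p = 1.70e-05) and fell by 2.57-fold after long-term knockdown (log2 change −1.36 with SE 0.114, edgeR adjusted p = 1.03e-07). Both calls held in every alternative tried. Over the 40 tested genes closest to it on the chromosome, the median log2 change was 0.32 and 0.25.

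ADAMTS16 (chromosome 5, 5140330 to 5320304, plus strand), a gene linked to blood pressure, rose at both times. It was at 1.37, 1.22 and 1.89 CPM without and 2.53, 4.53 and 3.72 with short-term knockdown, and at 1.61, 2.94 and 2.98 without and 4.97, 4.40 and 5.26 with long-term knockdown, with no overlap at either time. The rise was 2.38-fold short-term (log2 change 1.25 with SE 0.335, edgeR adjusted p = 0.0225) and 1.94-fold long-term (log2 change 0.96 with SE 0.289, edgeR adjusted p = 0.0179), on 30, 72, 54 and 104 counts. The short-term call had an adjusted p of 0.0898 to 0.104 without replicate 1 or 2 of the short-term nontarget group or replicate 2 of the short-term FLCN knockdown group, and the long-term call an adjusted p of 0.0531 to 0.0869 without replicate 1 of the long-term nontarget group or replicate 1 of the long-term FLCN knockdown group. Its 40 nearest tested genes had medians of 0.48 and 0.27.

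ADAMTS9 (chromosome 3, 64515654 to 64688000, minus strand), which cuts versican, was at 16.4, 14.4 and 18.4 CPM in short-term nontarget, 10.9, 16.1 and 12.9 in short-term knockdown, 13.3, 15.3 and 19.1 in long-term nontarget and 44.4, 42.4 and 38.8 in long-term knockdown libraries. The 3 long-term knockdown libraries lay above the other 9, and the rise was 2.63-fold (log2 change 1.40 with SE 0.162, edgeR adjusted p = 4.21e-06). ADAMTS6 (chromosome 5, 65148736 to 65481920, minus strand), a relative of ADAMTS10 that acts on fibrillin microfibrils, was at 3.42, 2.88 and 3.61 CPM in short-term nontarget, 3.80, 2.49 and 3.19 in short-term knockdown and 2.81, 2.79 and 1.94 in long-term nontarget libraries. Its long-term knockdown libraries, at 5.32, 5.87 and 6.78 CPM, were again the highest 3. It rose by 2.37-fold after long-term knockdown (log2 change 1.24 with SE 0.248, edgeR adjusted p = 9.47e-04). In short-term cells neither gene passed the threshold after knockdown (edgeR adjusted p = 0.324 and 0.937).

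ADAMTS1 and ADAMTS3 fell. ADAMTS1 (chromosome 21, 26835747 to 26845409, minus strand), another versican-cutting enzyme, was at 123, 127 and 137 CPM in short-term nontarget, 122, 107 and 147 in short-term knockdown, 96.0, 99.3 and 99.8 in long-term nontarget and 64.2, 63.2 and 67.0 in long-term knockdown libraries. The long-term knockdown libraries were the lowest 3 of the 12, and ADAMTS1 fell by 1.52-fold (log2 change −0.60 with SE 0.111, edgeR adjusted p = 4.84e-04). After short-term knockdown it was not called (−0.041, 95% interval −0.25 to 0.17). ADAMTS3 (chromosome 4, 72280969 to 72569386, minus strand), which trims procollagen and activates VEGFC, was at 54.0, 46.8 and 69.3 CPM without and 40.7, 38.0 and 45.0 with short-term knockdown, and at 48.1, 44.8 and 45.8 without and 34.7, 32.0 and 30.4 with long-term knockdown. At both times the groups did not overlap, and it fell by 1.38-fold (log2 change −0.46 with SE 0.133, edgeR adjusted p = 0.0340) and 1.43-fold (log2 change −0.51 with SE 0.135, edgeR adjusted p = 0.00779). The short-term call had an adjusted p of 0.0718 to 0.203 without replicate 1 or 3 of the short-term nontarget group or replicate 1 or 2 of the short-term FLCN knockdown group. ADAMTS5, ADAMTS7 and ADAMTS15 were called after neither knockdown, and ADAMTS7, whose reads could be split with 3 pseudogene copies, was called in none of the 5 comparisons and had a mean of 0.820 RPKM.

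**Figure D3:**
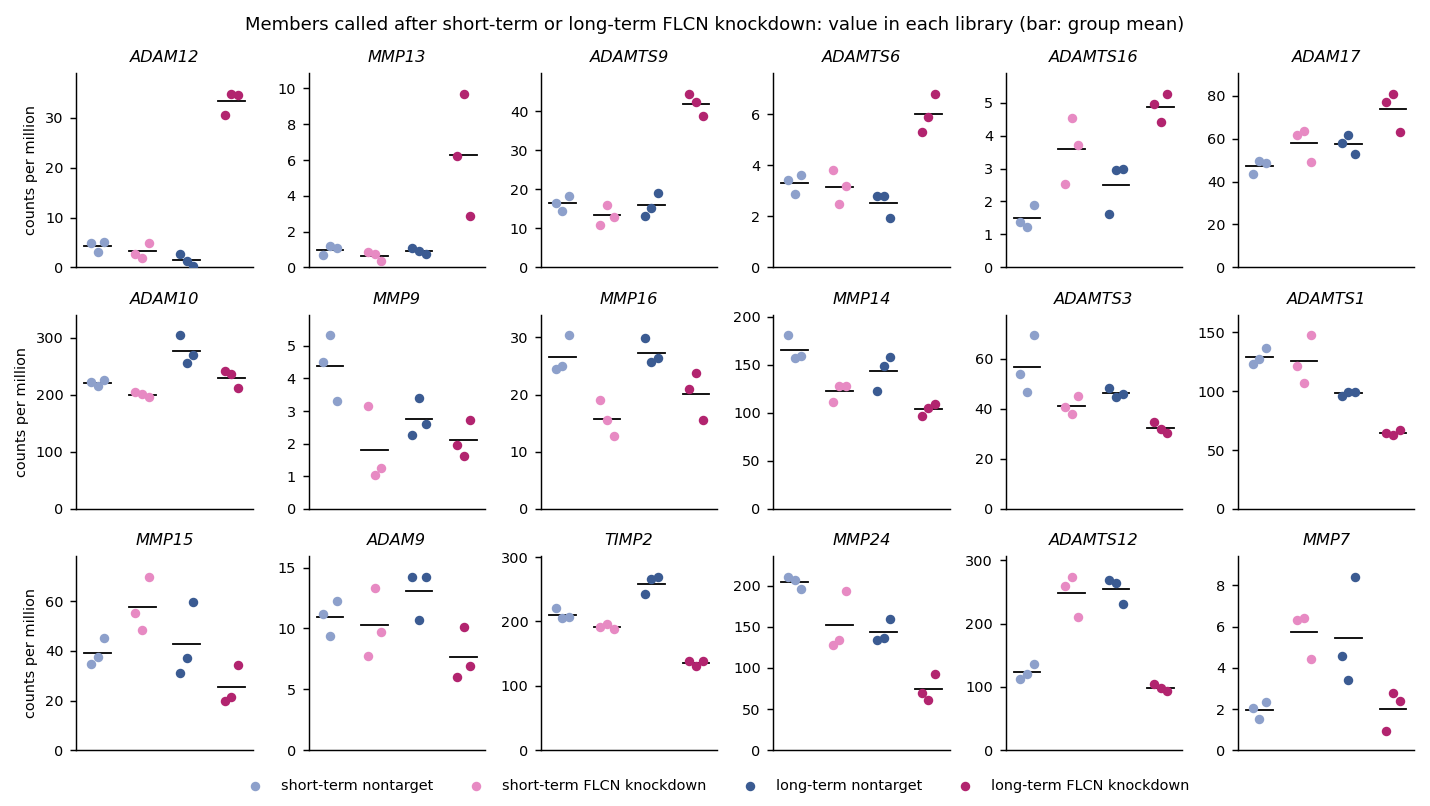
Value of each library in CPM (vertical axis, starting at 0) for the 18 members called after short-term or long-term knockdown, with the 4 groups from left to right, points for the 3 libraries and a bar for the mean. ADAM12, MMP13 and ADAMTS9 are high in long-term knockdown cells alone, and ADAMTS12 and MMP7 are high in short-term knockdown and long-term nontarget cells.

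The interaction tested whether the knockdown effect differed between the times, and it was called for 9 members. For ADAM12, MMP13, ADAMTS9 and ADAMTS6 the effect was higher in long-term cells, against 4.98% of all tested genes. It was lower for ADAMTS12, MMP7, TIMP2, MMP15 and ADAMTS1, against 8.43%. The difference between the log2 fold changes was 4.95 for ADAM12 (SE 0.533, edgeR adjusted p = 8.06e-06), 3.28 for MMP13 (SE 0.759, adjusted p = 0.00696) and 1.70 for ADAMTS9 (SE 0.238, adjusted p = 8.10e-05). It was −3.03 for MMP7 (SE 0.542, adjusted p = 8.41e-04) and −2.38 for ADAMTS12 (SE 0.160, adjusted p = 2.23e-08). MMP9 and MMP16, called after short-term but not long-term knockdown, were not called for the interaction (edgeR adjusted p = 0.363 and 0.478), so their effects are not shown to differ with time. The members ADAM9, ADAM10, ADAM17 and MMP24, called after long-term knockdown alone, were not called for it either (adjusted p = 0.192, 0.605, 0.883 and 0.147). For MMP24 this depended on the fit: the interaction, −0.51 on the log2 scale, was called lower without the filter on low counts (−0.51, adjusted p = 0.0341) and without replicate 3 of the long-term knockdown group (−0.70, adjusted p = 0.0224).

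Time in culture without knockdown was compared in the nontarget cells, where 7 members differed. ADAMTS5, MMP7, ADAMTS12, ADAM10 and TIMP2 were higher in long-term cells, against 3.17% of all tested genes called higher. ADAM12 and ADAMTS1 were lower, against 4.38% called lower. ADAMTS5 (chromosome 21, 26917912 to 26966513, minus strand), the main aggrecan-cutting enzyme of cartilage, was at 1.504, 2.28 and 2.98 CPM in short-term and 9.65, 8.52 and 8.54 in long-term nontarget libraries, with no overlap, a rise of 3.97-fold (log2 change 1.99 with SE 0.273, edgeR adjusted p = 1.48e-04). ADAMTS12 rose by 2.07-fold (log2 change 1.05 with SE 0.113, edgeR adjusted p = 1.32e-05) and MMP7 by 2.78-fold (log2 change 1.48 with SE 0.384, edgeR adjusted p = 0.0239). This comparison shares its short-term nontarget libraries with the short-term knockdown comparison and its long-term nontarget libraries with the long-term one. ADAM12 fell by 2.91-fold (log2 change −1.54 with SE 0.434, edgeR adjusted p = 0.0386), TIMP2 rose by 1.23-fold (edgeR adjusted p = 0.0397), ADAM10 rose by 1.25-fold (adjusted p = 0.0397) and ADAMTS1 fell by 1.31-fold (adjusted p = 0.0343).

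Several of these calls rested on single libraries. Leaving out 1 library gave 2 to 5 members: 2 without replicate 1 or 3 of the short-term or replicate 3 of the long-term nontarget group, 3 without replicate 2 of the short-term and 4 without replicate 2 of the long-term nontarget group. ADAMTS5 and ADAMTS12 were called in all of these fits. MMP7 had an adjusted p of 0.0523 to 0.165 without replicate 1, 2 or 3 of the short-term nontarget group or replicate 3 of the long-term nontarget group, ADAM12 had an adjusted p of 0.103 to 0.138 without replicate 1 or 3 of the short-term nontarget group or replicate 2 or 3 of the long-term nontarget group and a log2 change of −2.33 without replicate 1 of the long-term nontarget group, and TIMP2 had an adjusted p of 0.0807 to 0.157 without replicate 1, 2 or 3 of the short-term nontarget group or replicate 2 or 3 of the long-term nontarget group. Without replicate 3 of every group these 3 had log2 changes of the same sign and an adjusted p of 0.0743, 0.0939 and 0.0600 in that order, and the log2 change of ADAM12 was −0.95. TIMP2 and ADAM10 were also lost without the filter on low counts (0.129 and 0.0802), and TIMP2 with only the groups compared (0.0597). ADAM10 had an adjusted p of 0.0746 to 0.150 without replicate 1, 2 or 3 of the short-term nontarget group or replicate 1 or 3 of the long-term nontarget group, and ADAMTS1 had an adjusted p of 0.0753 to 0.127 without replicate 1, 2 or 3 of the short-term nontarget group or replicate 1, 2 or 3 of the long-term nontarget group. Leaving out replicate 3 of every group called 10 members, 5 higher and 5 lower. MMP24, which missed the threshold here (log2 change −0.51 with SE 0.155, edgeR adjusted p = 0.0550), was called lower in that fit (1.91e-05), by DESeq2 (0.0328), without the filter on low counts (7.00e-04), with only the groups compared (0.00254) and without replicate 1 or 3 of the short-term or 2 or 3 of the long-term knockdown group (0.0108 to 0.0488). In bulk RNA, fewer cells of a kind and less RNA per cell cannot be told apart.

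Time in culture with knockdown changed 16 members, 8 higher and 8 lower, against 11.5% and 15.2% of all tested genes. It shares its short-term libraries with the short-term knockdown comparison and its long-term libraries with the long-term one. ADAM12 rose by 10.6-fold between short-term and long-term knockdown cells (log2 change 3.41 with SE 0.313, edgeR adjusted p = 5.36e-07), MMP13 by 9.07-fold (log2 change 3.18 with SE 0.451, edgeR adjusted p = 4.61e-05), ADAMTS5 by 3.86-fold (log2 change 1.95 with SE 0.286, edgeR adjusted p = 6.52e-05) and ADAMTS9 by 3.16-fold (log2 change 1.66 with SE 0.166, edgeR adjusted p = 9.05e-07). For ADAMTS5 the long-term knockdown libraries were at 7.97, 6.90 and 7.12 CPM against 2.53, 2.05 and 0.885 in the short-term ones, and the difference from the change without knockdown was −0.04 on the log2 scale (95% interval −0.88 to 0.80). ADAM22 (chromosome 7, 87934143 to 88202889, plus strand), a receptor of neurons without protease activity, was at 3.54, 2.78 and 4.60 CPM in short-term and 9.94, 10.9 and 9.67 in long-term knockdown libraries, a rise of 2.81-fold (log2 change 1.49 with SE 0.215, edgeR adjusted p = 5.48e-05). In nontarget cells ADAM22 was at 4.51, 4.10 and 5.34 CPM short-term and 8.58, 7.43 and 6.21 long-term, which did not overlap, but the change missed the threshold (edgeR adjusted p = 0.0672). It was called higher without replicate 3 of the short-term knockdown group (log2 change 0.67, adjusted p = 0.0494) and without replicate 3 of every group (0.89, adjusted p = 0.0204). ADAMTS6 rose by 1.87-fold (adjusted p = 0.00978), with an adjusted p of 0.05005 without replicate 2 of the short-term FLCN knockdown group.

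Smaller rises were those of ADAM19 (chromosome 5, 157395534 to 157575775, minus strand), from 20.9, 23.1 and 25.3 to 31.2, 33.2 and 31.7 CPM (log2 change 0.48 with SE 0.163, edgeR adjusted p = 0.0391), and of ADAM17 (log2 change 0.34 with SE 0.124, edgeR adjusted p = 0.0496), whose groups overlapped. The ADAM19 call had an adjusted p of 0.0531 to 0.140 without replicate 1 or 2 of the short-term FLCN knockdown group or replicate 1, 2 or 3 of the long-term FLCN knockdown group, and 0.0502 with the filter at a mean of 10 CPM. CYFIP2 shares 0.805% of the exon bases of ADAM19 on the opposite strand and went the other way (−5.12). The ADAM17 call had an adjusted p of 0.0684 to 0.206 without replicate 1 or 3 of the short-term FLCN knockdown group or replicate 1 or 2 of the long-term FLCN knockdown group, and it was lost with RLE factors (0.0520), DESeq2 (0.0510), the filter at a mean of 10 CPM (0.0621) and only the groups compared (0.106).

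MMP7 fell by 2.94-fold between short-term and long-term knockdown cells (log2 change −1.56 with SE 0.383, edgeR adjusted p = 0.00565) and ADAMTS12 by 2.51-fold (log2 change −1.33 with SE 0.114, edgeR adjusted p = 1.55e-07). MMP15 fell by 2.30-fold (log2 change −1.20 with SE 0.241, edgeR adjusted p = 0.00164), MMP24 by 2.04-fold (log2 change −1.03 with SE 0.160, edgeR adjusted p = 1.40e-04) and ADAMTS1 by 1.93-fold (log2 change −0.95 with SE 0.111, edgeR adjusted p = 5.43e-06). ADAMTS15 (chromosome 11, 130448974 to 130476641, plus strand), another proteoglycan-cutting enzyme, was at 21.5, 25.1 and 34.1 CPM in short-term and 13.4, 14.1 and 14.6 in long-term knockdown libraries, with no overlap, a fall of 1.91-fold (log2 change −0.93 with SE 0.203, edgeR adjusted p = 0.00232). TIMP2 fell by 1.41-fold (log2 change −0.50 with SE 0.0860, edgeR adjusted p = 3.30e-04). ADAM15 (chromosome 1, 155050566 to 155062775, plus strand), an ADAM with an integrin-binding motif, was at 111, 108 and 140.0 CPM in short-term and 77.7, 69.8 and 112 in long-term knockdown libraries, which overlapped through replicate 3 of the long-term group (log2 change −0.47 with SE 0.157, edgeR adjusted p = 0.0343). That call had an adjusted p of 0.130 to 0.150 without replicate 3 of the short-term FLCN knockdown group or replicate 1 or 2 of the long-term FLCN knockdown group and 0.0699 with only the groups compared. ADAMTS3 missed the threshold (log2 change −0.35 with SE 0.136, edgeR adjusted p = 0.0705). It was called lower with the replicate number as a block (−0.34, edgeR adjusted p = 0.0315) and without replicate 3 of the short-term nontarget group (0.0377). Same-numbered libraries correlated here too, again without a pairing stated by the labels.

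**Figure D4:**
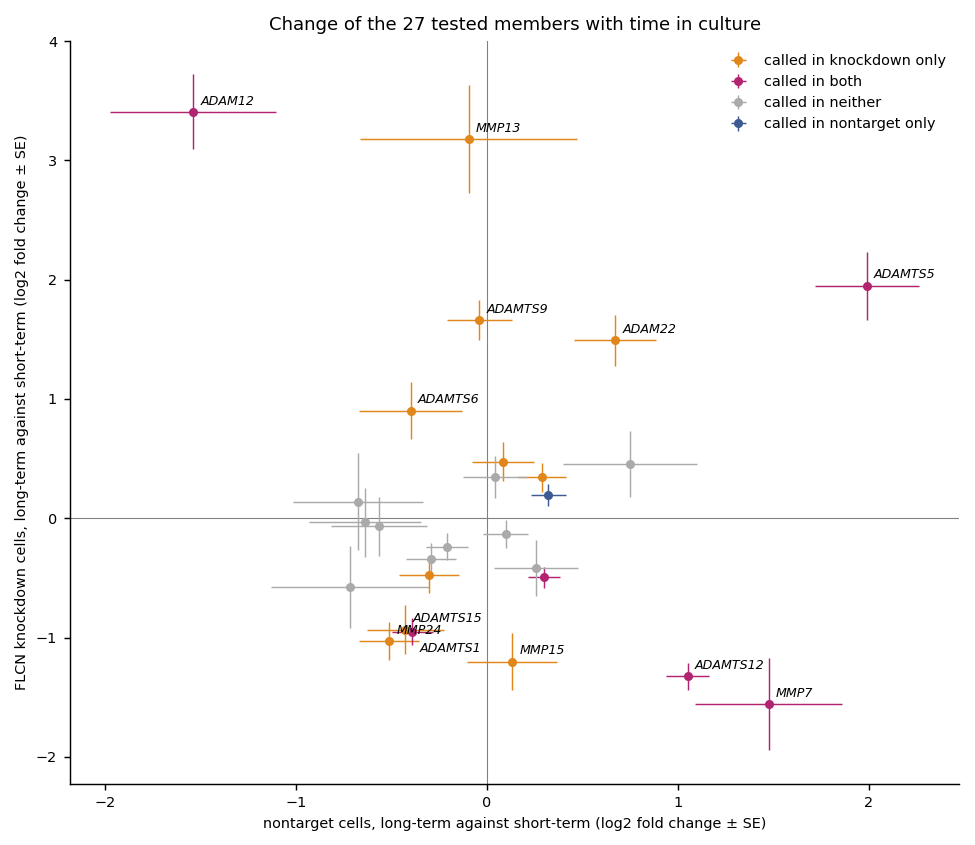
Log2 fold change (± SE) of the 27 tested members between long-term and short-term cells, in nontarget cells (horizontal axis) and in FLCN knockdown cells (vertical axis). ADAMTS5 rose by about the same amount in both, ADAM12 fell in nontarget and rose in knockdown cells, and MMP7 and ADAMTS12 rose in nontarget and fell in knockdown cells.

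Genes that activate, bind, inhibit or are cut by the members were tallied in 8 lists of 87 genes, 68 of them tested. After short-term knockdown 11 were called higher and 10 lower, with a median log2 fold change of −0.14, and after long-term knockdown 12 and 30, with a median of −0.26. The shares of all tested genes given above (5.62% and 4.71% short-term, 13.7% and 15.8% long-term) are the background of these counts.

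The activators were lower after long-term knockdown. In the list of plasminogen activation and proprotein convertases, which turn pro-MMPs and pro-ADAMs into active enzymes, 7 of 8 tested genes fell after long-term knockdown (median −1.15, all genes 0.00095). PLAT (tissue plasminogen activator) fell from 30.6 ± 4.24 to 5.28 ± 1.46 CPM (mean ± SD, n = 3; log2 change −2.55 with SE 0.195, edgeR adjusted p = 3.81e-08). PLAUR, the urokinase receptor, fell by 1.67 on the log2 scale (edgeR adjusted p = 8.65e-06), PLAU (urokinase) fell by 1.01 (adjusted p = 2.24e-05) and the convertase PCSK7 fell by 1.29 (adjusted p = 3.51e-06). The 7 include SERPINE2, which inhibits plasminogen activators, with a small fall (−0.32, adjusted p = 0.0233). After short-term knockdown 2 genes of this list rose and 2 fell. PLAUR (−0.95) and PLAU (−0.55) were lower and SERPINE2 (0.69) was higher (edgeR adjusted p = 0.00249, 0.0126 and 2.17e-04). In that comparison the nearest tested genes, taken as for ADAM17, had medians of 0.46 for SERPINE2, −0.17 for PLAUR and 0.25 for PLAU. The part of the region in these values was not tested.

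Inhibitors outside the TIMP family and surface partners were few. SPOCK1, a proteoglycan that can inhibit membrane-type MMPs, rose from 90.5 ± 11.1 to 295 ± 47.5 CPM after long-term knockdown (log2 change 1.71 with SE 0.131, edgeR adjusted p = 3.99e-08) and from 112 ± 8.69 to 171 ± 18.1 CPM in the short-term comparison (log2 change 0.62 with SE 0.129, edgeR adjusted p = 0.00419). It was the only one of the 3 tested inhibitors called long-term, and TFPI2 fell short-term (log2 change −0.93 with SE 0.264, edgeR adjusted p = 0.0349) with groups that overlapped. CD44, which docks MMP7 and MMP9 at the cell surface, was the only one of 4 tested docking and clearance partners called after long-term knockdown (log2 change 0.67 with SE 0.108, edgeR adjusted p = 1.42e-04), with 216 ± 16.6 CPM without and 342 ± 22.0 CPM with it. Its short-term value was −0.22 (adjusted p = 0.236).

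Among 9 genes that help ADAM17 and ADAM10 mature and move through the cell (iRhoms, TspanC8 tetraspanins and FRMD8), 1 rose and 4 fell after long-term knockdown. TSPAN15 fell by 1.22 (edgeR adjusted p = 9.92e-06), TSPAN5 fell by 0.79 (adjusted p = 3.65e-04), TSPAN14 fell by 0.72 (adjusted p = 5.55e-04) and the iRhom RHBDF1 fell by 0.89 (adjusted p = 9.44e-04) on the log2 scale. After short-term knockdown TSPAN17 alone was called, higher by 0.64 (adjusted p = 8.03e-04). Its nearest tested genes had a median of 0.51 in that comparison, and the part of the region in the TSPAN17 value was not tested. Of 20 tested membrane proteins that ADAMs shed, 5 rose and 9 fell after long-term knockdown, and 3 rose and 3 fell after short-term knockdown. The Notch ligand JAG1 rose from 28.2 ± 11.97 to 205 ± 15.7 CPM (log2 change 2.85 with SE 0.226, edgeR adjusted p = 2.10e-07), and the growth factor EREG from 50.0 ± 8.45 to 178 ± 6.46 CPM (log2 change 1.83 with SE 0.190, edgeR adjusted p = 2.51e-06). The receptor IL6R fell from 18.4 ± 2.62 to 3.98 ± 0.517 CPM (log2 change −2.21 with SE 0.186, edgeR adjusted p = 1.17e-07) and the growth factor HBEGF from 103 ± 7.56 to 52.1 ± 3.26 CPM (log2 change −0.99 with SE 0.110, edgeR adjusted p = 2.57e-06). Short-term, TGFA (1.13, adjusted p = 5.49e-05) and L1CAM (0.71, adjusted p = 0.0226) rose, and AREG (−1.17, adjusted p = 1.50e-04) and EREG (−0.87, adjusted p = 0.00740) fell, so EREG was called in opposite directions at the 2 times. Medians of the nearest tested genes short-term were 0.37 for TGFA, 0.10 for L1CAM and −0.13 for both AREG and EREG.

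Of the matrix proteins that ADAMTS enzymes cut, 3 of 8 were tested. FN1 (fibronectin) was at 1590.0 ± 315 CPM in short-term nontarget and 2498 ± 230.4 CPM in short-term knockdown cells, a rise (log2 change 0.65 with SE 0.154, edgeR adjusted p = 0.0109), and fell from 1627 ± 359 to 284 ± 31.0 CPM after long-term knockdown (log2 change −2.52 with SE 0.163, edgeR adjusted p = 8.60e-09). The nearest tested genes of FN1 had medians of 0.41 short-term and −0.067 long-term, and their region's part in the FN1 values was not tested. THBS1 (thrombospondin) rose at both times (0.65 and 1.08, edgeR adjusted p = 0.0476 and 6.94e-04), with groups that overlapped short-term. In the list of ADAMTS-like proteins and other secreted metzincins, 2 of 9 rose and 6 fell long-term, and 2 rose and 1 fell short-term. TLL1, a tolloid protease that trims procollagen, fell at both times (−1.32 and −3.73, adjusted p = 4.69e-04 and 1.45e-08), and its relative TLL2 fell long-term (−2.19, adjusted p = 1.28e-04). ADAMTSL3 rose at both times (1.18 and 1.04, adjusted p = 0.00314 and 9.63e-04), and ADAMTSL4 rose short-term and fell long-term (1.84 and −1.97, adjusted p = 0.00141 and 0.00663).

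Among 12 AP-1 and ETS factors, which bind MMP promoters, 3 fell after short-term knockdown (ETV1 −1.25, ETV5 −0.51 and ETV4 −0.64, edgeR adjusted p = 1.21e-04, 0.00243 and 0.0325). After long-term knockdown ETV4 (−1.80), ETS2 (−1.01) and ETV1 (−0.75) fell and FOSB (0.77) rose (adjusted p = 3.20e-06, 1.98e-05, 0.00363 and 0.0156). The median of this list was −0.097 short-term and −0.15 long-term.

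**Figure D5:**
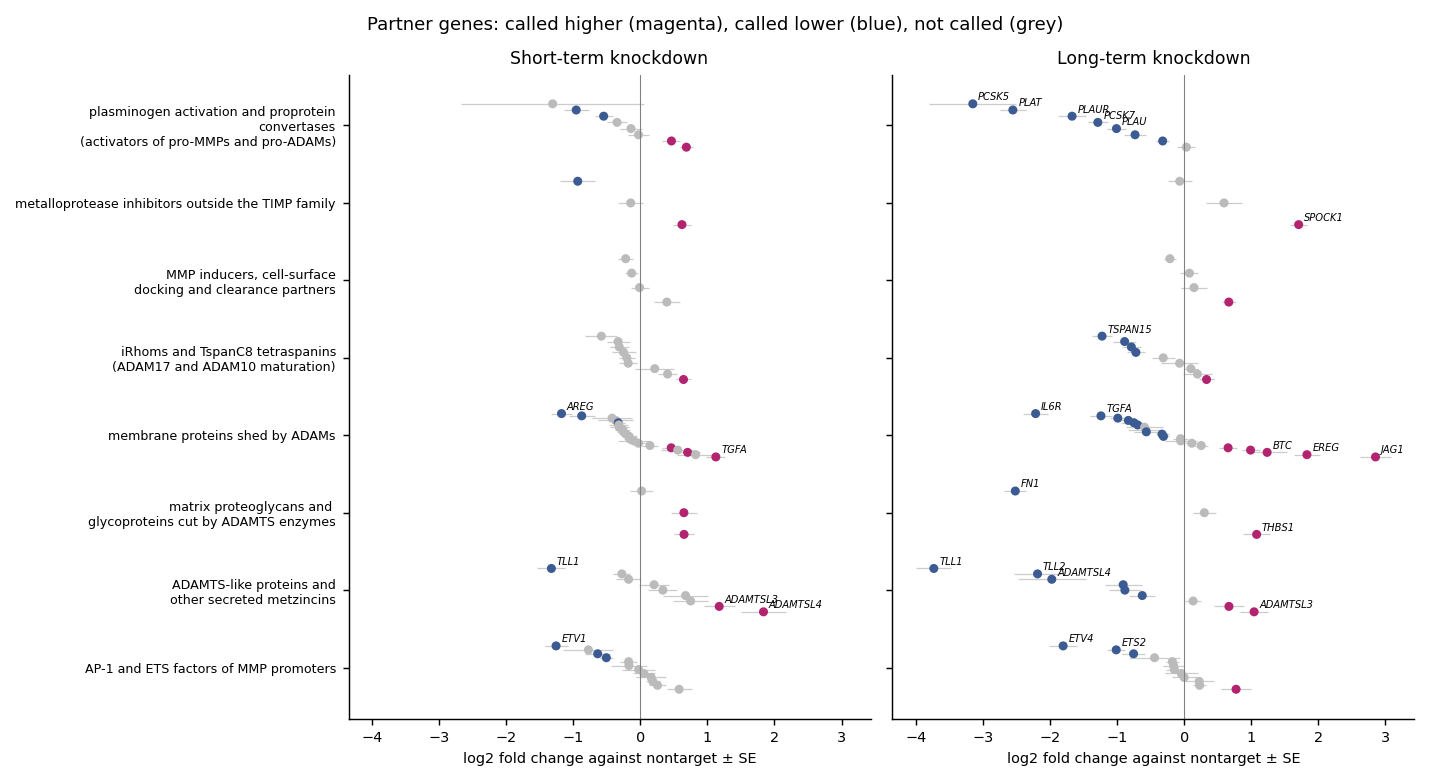
Log2 fold change against nontarget cells (± SE, horizontal axis) of the 68 tested partner genes in their 8 lists after short-term (left) and long-term (right) knockdown, coloured by call. After long-term knockdown 7 of the 8 tested plasminogen and convertase genes lie on the called-lower side, and JAG1, EREG and SPOCK1 lie far to the right.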

How the data were processed

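RNA of 12 HK2 libraries (4 groups of 3) was measured by RNA sequencing. The authors prepared unstranded TruSeq libraries, sequenced them on a MiSeq, trimmed reads with fastp, mapped them with STAR to GRCh38 and assigned them to genes with featureCounts, which gave the deposited counts per gene. Tool versions, the strand setting and the annotation release are not given in the sources used here. The deposited table also holds 12 columns of values normalised by the authors, which were not used. The per-library files differed from the table in 0 values.

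Gene IDs were named with GENCODE release 29, and coordinates are printed for members matched by the same version. Tests on the counts used edgeR 4.0.16 (R 4.3.3): filterByExpr over the 4 groups (13959 genes, 99.8% of counts), TMM factors and a robust quasi-likelihood fit of all 12 libraries with a term per group and a prior count of 0.125. Two-sided p-values were corrected over all tested genes (Benjamini-Hochberg), and a call is an adjusted p below 0.05. The SE is the log2 fold change divided by the square root of F, and 95% intervals are the normal ones from that SE. The coefficient of biological variation was 12.0%. RPKM used the union of annotated exons.

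Members called in any of the 5 comparisons, the TIMPs, ADAM10 and ADAM17 are named, with each library's value where a knockdown comparison or the interaction called them, and at most the 4 partner genes of smallest p per list and comparison, to which SERPINE2 in the long-term comparison was added after its value was seen. Partner genes were not refitted under the alternatives, and a gene that this rule names is not reported here. MMP1, MMP11 and other tested members are named with a level. Members and lists were chosen with earlier results of these data known.

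The replicate numbers were checked for pairing: deviations from the group means of same-numbered libraries correlated above 0.1 in all pairs of long-term knockdown with long-term nontarget and with short-term knockdown, but not in the other comparisons. The range over all comparisons was −0.034 to 0.458 for the same and −0.397 to 0.231 for different numbers. Long-term knockdown replicate 2 correlated more with long-term nontarget replicate 1 (0.231) than with replicate 2 of that group (0.123). Alternatives were RLE factors, DESeq2 1.42.0, no filter, a mean of at least 10 CPM, a block for the replicate number, a fit of the compared groups alone, leaving out each library and, added after seeing the data, leaving out replicate 3 of every group.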

Additional observations from a re-analysis of the deposited data

Results flagged for a closer look

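For 9 members the effect of FLCN knockdown differed between long-term and short-term cells by the test of the difference itself (the interaction, edgeR, 3 libraries in each of the 4 groups), beside 4.98% of all tested genes called higher and 8.43% called lower by the same test. The long-term effect was higher, on the log2 scale, by 4.95 for ADAM12 (SE 0.533, adjusted p = 8.06e-06), 3.28 for MMP13 (SE 0.759, adjusted p = 0.00696), 1.70 for ADAMTS9 (SE 0.238, adjusted p = 8.10e-05) and 1.30 for ADAMTS6 (SE 0.362, adjusted p = 0.0222). It was lower, with differences of −3.03 for MMP7 (SE 0.542, adjusted p = 8.41e-04), −2.38 for ADAMTS12 (SE 0.160, adjusted p = 2.23e-08), −1.33 for MMP15 (SE 0.337, adjusted p = 0.0146), −0.79 for TIMP2 (SE 0.121, adjusted p = 1.88e-04) and −0.56 for ADAMTS1 (SE 0.155, adjusted p = 0.0216). For ADAM12, MMP13, MMP7, ADAMTS12, ADAMTS9, MMP15 and TIMP2 the call held when each library was left out in turn. ADAMTS6 had an adjusted p of 0.0544 to 0.0632 without replicate 1 or 3 of the short-term nontarget group, replicate 2 of the short-term FLCN knockdown group or replicate 3 of the long-term nontarget group and 0.150 without replicate 3 of every group, and ADAMTS1 had an adjusted p of 0.0514 to 0.0629 without replicate 1 or 2 of the short-term nontarget group or replicate 1 of the long-term FLCN knockdown group. The ADAM12 difference was 5.73 without replicate 1 of the long-term nontarget group.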

How the results depend on the processing

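The 55 called values of single members (16 after long-term and 7 after short-term knockdown, 7 and 16 over time without and with knockdown, 9 for the interaction) kept their direction in every alternative: 0 reversed. Of them 32 were called in every alternative that could test them and 23 were lost in at least 1. The filter at a mean of 10 CPM tested 38 of the 55, and the fit of only the groups compared 46. The 12 fits that each left out 1 library gave 384 values for these calls in the groups concerned, and 76 of those values lost the call. RLE factors and DESeq2 lost 1 call each (ADAM17 over time with knockdown), the fit without the filter 3, only the groups compared 6, and leaving out replicate 3 of every group 6. With a mean of at least 10 CPM, where members of low level drop out of the test, 4 members were called after short-term knockdown and 9 over time with knockdown. Leaving out each library of the groups compared in turn gave 2 to 7 members after short-term knockdown, 12 to 16 after long-term knockdown, 2 to 5 over time in nontarget cells, 13 to 16 over time in knockdown cells and 7 to 10 for the interaction. Over all 13959 genes the replicate block gave more calls in every comparison, and among the members it called 9, 17, 10, 17 and 10, with no call lost. It added MMP15 and MMP24 after short-term knockdown (adjusted p = 0.00200 and 0.00513, edgeR), MMP16 after long-term knockdown (0.0280), ADAM22, MMP24 and MMP1 over time in nontarget cells (0.0467, 0.00208 and 0.0335), ADAMTS3 over time in knockdown cells (0.0315) and MMP24 for the interaction (0.0294). Without the filter ADAMTS14 and ADAM21 were also called lower over time in knockdown cells, on 10 and 46 counts in all, and their sizes are not given because they depend on the prior count. Depth limits the members under about 1 CPM, where a group of 3 libraries holds few counts. Libraries outside a comparison enter its fit through the shared estimate of spread, and leaving one of them out also ended calls of MMP9, ADAM10, ADAM12, TIMP2, ADAM17 and ADAM19.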
